A study of Homo sapiens with 6 samples.

Results

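The genes described here are 10 that make or trim the peptides shown by MHC class I: the 3 immunoproteasome subunit genes PSMB8, PSMB9 and PSMB10, their 3 constitutive counterparts PSMB5, PSMB6 and PSMB7, the activator genes PSME1 and PSME2, and the endoplasmic reticulum aminopeptidase genes ERAP1 and ERAP2. They were picked out by symbol through their Ensembl identifiers, and all 10 were found among the 16715 distinct identifiers of the deposited table. The RNA-seq libraries came from HCT116, a cell line established from a human colorectal carcinoma, with 3 libraries from 5aza-treated cells and 3 from control cells. The treated cells received 5 µM 5aza for 48 hours and then fresh medium for 48 hours, and no label used here says what the control cells received in its place. The sample titles call the drug 5aza and the table's columns carry the code DAC, so the compound's full name is left as the titles give it. Nothing states that the libraries of a group came from separate cultures, so p-values measure the spread between these libraries, which may be technical. As a check of the cell type, the epithelial keratin gene KRT8 was at 1151 ± 19.4 FPKM in 5aza cells and 984 ± 35.4 FPKM in control cells (SD, n = 3 each). Of 10 epithelial and colon markers 7 were tested, of which 5 rose, 1 (EPCAM) fell and 1 did not pass; EPCAM was at 151 to 157 FPKM in 5aza libraries and 166 to 167 FPKM in control libraries. Over all genes tested, 10.6% rose and 13.1% fell. The colon markers VIL1, CDX1 and LGALS4 stayed under the filter of 0.5 FPKM in every library. Others were expressed: CDX2 was at 9.37 FPKM in 5aza cells and 9.01 FPKM in control cells, and KRT20 at 3.07 and 0.774 FPKM (means). Correlations between libraries on the log2 scale, across genes, were 0.992 to 0.993 within a group and 0.976 to 0.977 between groups.

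The proteasome is a barrel-shaped protease with a catalytic core of alpha and beta subunits that cuts ubiquitin-marked proteins into peptides. In cells exposed to interferon gamma, and constitutively in lymphoid cells, newly assembled barrels take up the inducible subunits encoded by PSMB8, PSMB9 and PSMB10 in place of those encoded by PSMB5, PSMB6 and PSMB7, which shifts the cuts toward peptides that fit MHC class I. PSME1 and PSME2 encode the alpha and beta chains of PA28, a ring that caps the barrel, and the aminopeptidases ERAP1 and ERAP2 shorten peptides at their amino end after the transporter TAP has carried them into the endoplasmic reticulum. Azanucleosides such as 5aza trap DNA methyltransferases, and interferon-type responses to them are known in cancer cells.

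Most of these genes are known interferon targets, and the interferon-stimulated response element (ISRE) is the kind of promoter motif through which interferon-activated factors reach such genes. RefSeq promoter windows on GRCh38.p14, from 250 bases before to 50 after an annotated start, were at hand for 8 of the 10 genes, with 12 windows in all; PSMB6 and PSMB7 are named only. An ISRE-type motif, a pair of GAAA blocks with any 2 bases between them, searched on both strands, was found in 6 of these 12 windows, belonging to 6 genes, against 3.57% of 35116 windows over all genes. A match describes letters and is no evidence of a bound factor. The stretches below are 60 bases long, written 5′ to 3′ on the gene's own strand, with the matched letters in capitals. They are shown because 4 of the 6 share the same 10 letters on one strand or the other, while PSMB8 alone among these 4 passed the test against control.
PSMB8 (the second start, chr6:32844018-32844077, minus strand): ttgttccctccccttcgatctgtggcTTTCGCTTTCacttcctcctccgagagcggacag
PSMB10 (chr16:67936838-67936897, minus strand): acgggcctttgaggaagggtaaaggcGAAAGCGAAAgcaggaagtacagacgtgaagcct
PSME1 (chr14:24136173-24136232, plus strand): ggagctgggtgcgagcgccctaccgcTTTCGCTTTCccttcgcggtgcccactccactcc
PSME2 (chr14:24146605-24146664, minus strand): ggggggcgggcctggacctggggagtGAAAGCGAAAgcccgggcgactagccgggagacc
ERAP1 (the first start, chr5:96807910-96807969, minus strand): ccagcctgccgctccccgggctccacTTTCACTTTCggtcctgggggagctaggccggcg
ERAP2 (the second start, chr5:96876444-96876503, plus strand): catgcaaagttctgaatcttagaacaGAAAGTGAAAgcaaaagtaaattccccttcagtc

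PSMB8, PSME1, PSMB10 and PSME2 hold GAAAGCGAAA or its reverse complement TTTCGCTTTC, while ERAP1 and ERAP2 hold GAAAGTGAAA or its reverse complement TTTCACTTTC. With the annotated start counted as 0, the matches lay between base -30 and base 14. The window of PSMB9 held no match. The divergent neighbour TAP1, a subunit of the peptide transporter, starts 488 bases before PSMB9, and 2 overlapping matches lay between these starts, with their near edge 354 bases before the PSMB9 start. A GAS-type motif (interferon gamma-activated site), TTCNNNGAA, which reads the same on both strands and overlapped no ISRE-type match, was found in the second window of PSMB8 and, with 2 matches, in the second window of PSMB5, against 7.66% of all windows.

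The windows also differed in their content of CpG, the dinucleotide that DNA methyltransferases modify. The median over all windows was 14 CpG. PSME1 had 31, ERAP1 had 28 at its first start and 3 at its second, and PSMB9 had 26, while PSMB8 had 17 and 15 at its 2 starts and PSMB10 had 7. ERAP2 had 1 and 3 CpG at its 2 starts, PSMB5 had 10 and 13, and PSME2 had 17. Methylation was not measured in the data used here.

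**Figure D1:**
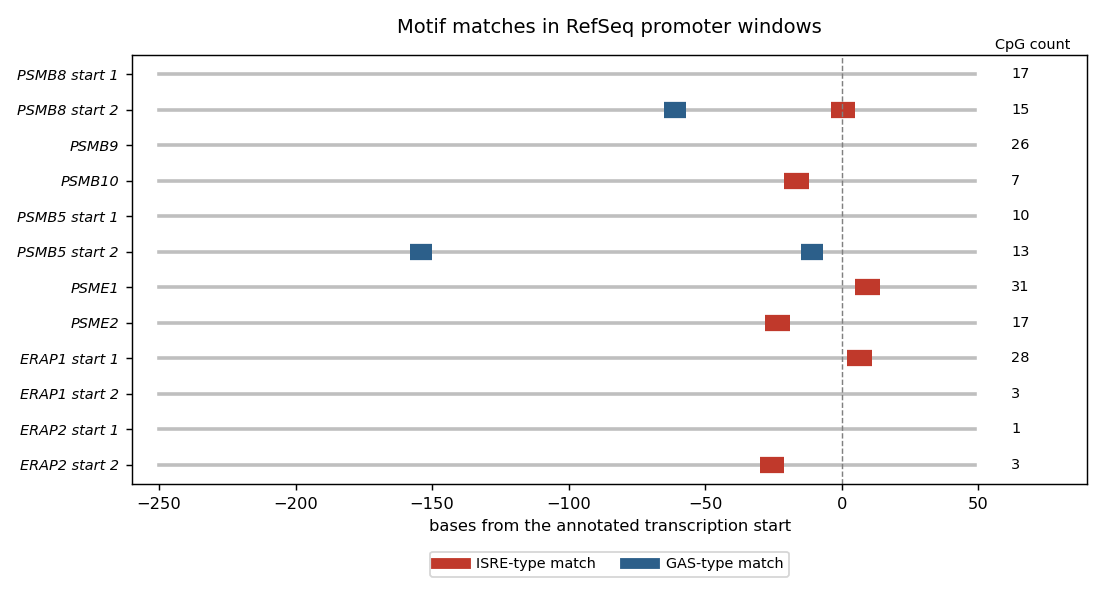
Matches of the ISRE-type (red) and GAS-type (blue) motifs in the 12 RefSeq promoter windows of 8 genes, placed by bases from the annotated start (x axis), with the CpG count of each window at the right. All 6 ISRE-type matches lie between base -30 and base 14.

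The levels of the 10 genes spanned more than 2 orders of magnitude. Values are FPKM, fragments scaled to transcript length and library size, so levels of different genes can be set side by side within a library. In 5aza cells PSMB7 (mean 235 FPKM) and PSMB6 (235 FPKM) led with overlapping ranges, followed in steps that did not overlap by PSMB5 (181), PSME1 (133), PSME2 (81.3), PSMB10 (14.5), PSMB9 (11.5) and ERAP1 (4.23 FPKM). PSMB8 (0.952 FPKM) and ERAP2 (0.933 FPKM) came last, with overlapping ranges. Control cells had the same order apart from these pairs, in which PSMB6 (255 FPKM) stood above PSMB7 (242 FPKM) and ERAP2 (0.518 FPKM) above PSMB8 (0.421 FPKM), again with overlapping ranges. The inducible subunits were unequal in both groups: PSMB9 mRNA exceeded PSMB8 mRNA by 12.7 ± 3.51 times in 5aza cells and 28.1 ± 10.6 times in control cells (SD, n = 3 each; a ratio chosen after its values were seen).

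**Figure D2:**
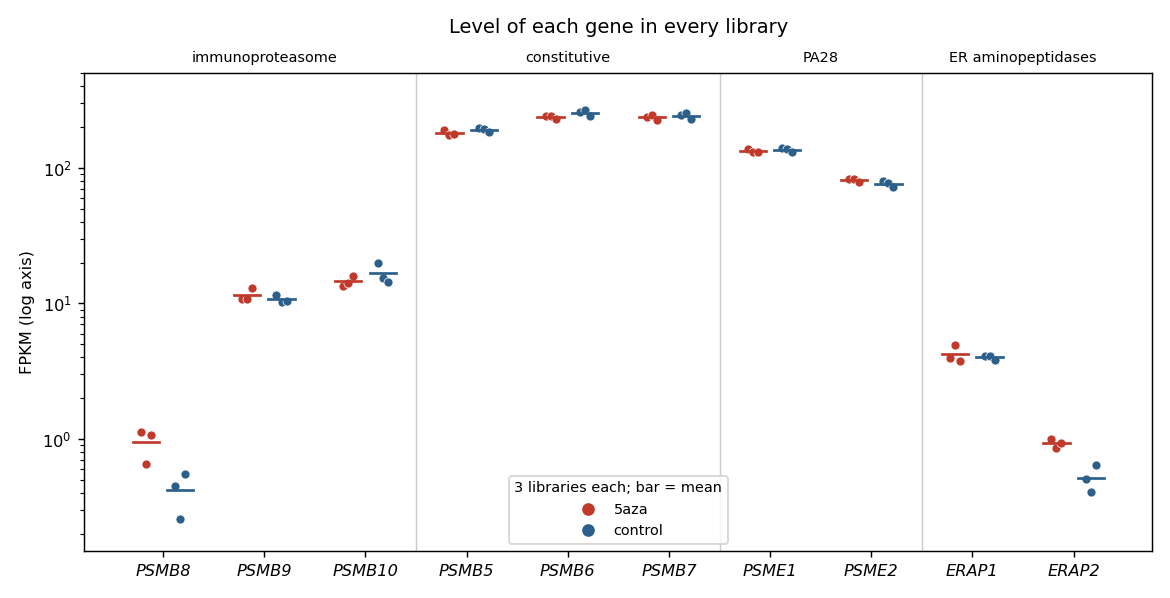
FPKM of each of the 10 genes (log axis) in the 3 5aza libraries (red) and the 3 control libraries (blue), with bars at the means. The groups are apart for PSMB8, ERAP2 and PSMB6, and overlap for the other 7 genes.

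Set against control cells, 5aza cells showed few changes among these genes. Of the 10, 2 rose (PSMB8 and ERAP2), 0 fell and 8 did not pass the test. "Rose" and "fell" are used here where limma's adjusted p (Benjamini-Hochberg, over all 12360 genes tested, on log2(FPKM + 0.1)) was under 0.05. Over all genes tested, 10.6% rose and 13.1% fell, 23.7% in all, so 2 calls among 10 genes is near the background. The groups did not overlap for 3 of the 10 genes (5aza higher for PSMB8 and ERAP2, lower for PSMB6), against 42.2% of all genes tested (19.6% with 5aza higher and 22.6% with 5aza lower). On the log2 scale the 10 fold changes had a median of 0.02, and those of the whole table had a median of -0.01.

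PSMB8 (ENSG00000204264, chromosome 6, 32840717 to 32844703, minus strand, GRCh38) encodes beta5i, the inducible chymotrypsin-like subunit. Its level was 1.13, 0.652 and 1.08 FPKM in the 5aza libraries, against 0.454, 0.259 and 0.550 FPKM in the control libraries. Every 5aza library lay above every control library, with 5aza replicate 2 closest to the controls. In bulk RNA, more cells of a kind and more RNA per cell cannot be told apart. The ratio of the means was 2.26, and the log2 fold change was 1.02 (SE 0.30, adjusted p = 0.0432 with limma). The estimate was 0.45 with a pseudocount of 1 and 0.60 under quantile normalization, and 0.78 to 1.25 without each library in turn. The call was lost without 5aza replicate 1 (adjusted p = 0.122), 5aza replicate 3 (0.128), control replicate 1 (0.0789) or control replicate 2 (0.109), under quantile normalization (0.176), with cyclic loess (0.0979), with no variance trend (0.0615) and with no filter on low values (0.0536).

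ERAP2 (ENSG00000164308, chromosome 5, 96875939 to 96919716, plus strand), an aminopeptidase that prefers basic amino-terminal residues, also rose, at a similarly low level. It had 0.994, 0.862 and 0.944 FPKM in 5aza libraries, against 0.507, 0.406 and 0.640 FPKM in control libraries. The 5aza values were tightly grouped and all above the controls. The ratio of the means was 1.80, and the log2 fold change was 0.76 (SE 0.20, adjusted p = 0.0309 with limma). With a pseudocount of 1 it was 0.35, under quantile normalization 0.42, and without each library in turn 0.62 to 0.90. The call was lost without 5aza replicate 1 (adjusted p = 0.0864), 5aza replicate 2 (0.0618), 5aza replicate 3 (0.0847), control replicate 1 (0.0743) or control replicate 2 (0.0884), under quantile normalization (0.170) and with cyclic loess (0.0909). The whole ERAP2 span lies within that of AC009126.1, a gene on the opposite strand (43778 shared bases), for which no values were at hand. Whether the libraries marked strand is not stated.

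Both calls stand in a part of the table where rises were common. Among the 940 tested genes that averaged below 1 FPKM, 19.5% rose and 0.532% fell. The 5aza values of PSMB8 and ERAP2 were enough to meet the filter (at least 0.5 FPKM in 3 of 6 libraries). Some control values also reached 0.5 FPKM, PSMB8 in replicate 3 (0.550) and ERAP2 in replicates 1 (0.507) and 3 (0.640). The number of genes listed at 0 was 755 to 801 in 5aza libraries and 1663 to 1761 in control libraries, so zeros were fewer after treatment. The median log2 fold change of the genes under 1 FPKM was 0.20, and -0.22 under quantile normalization and -0.03 with cyclic loess. The part of this in the rises of PSMB8 and ERAP2 was not tested, beyond the calls lost under both scalings.

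Leukocytes make the immunoproteasome constitutively, so markers of that lineage were read beside PSMB8. The share of risen genes over all genes tested was 10.6%. Of 13 leukocyte markers, 11 were in the table and 3 were tested, and all 3 rose: LAPTM5 (1.35 ± 0.222 FPKM in 5aza cells and 0.0535 ± 0.0169 FPKM in control cells, SD, n = 3 each), CD68 and CORO1A. The summed level of the whole list was 14.4 to 15.1 FPKM in 5aza libraries and 9.57 to 10.8 FPKM in control libraries. PTPRC, which defines leukocytes, was at 0.0358 to 0.108 FPKM in 5aza libraries and 0 to 0.0178 FPKM in control libraries. CD3D, of the T cell receptor complex, was at 0.0480 to 0.459 FPKM in 5aza libraries and listed at 0 in all control libraries. The part of these markers in the PSMB8 rise was not tested.

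The other inducible subunits did not pass the test. PSMB9 (ENSG00000240065, chromosome 6, 32844136 to 32859585, plus strand) encodes beta1i, the inducible counterpart of the caspase-like subunit. It had 10.7, 10.7 and 13.1 FPKM in 5aza libraries, against 11.6, 10.3 and 10.4 FPKM in control libraries. Only 5aza replicate 3 stood above the controls, and the log2 fold change was 0.09 (95% interval -0.12 to 0.30, adjusted p = 0.510 with limma). PSMB10 (ENSG00000205220, chromosome 16, 67934502 to 67937087, minus strand) encodes beta2i, the inducible trypsin-like subunit. Its values were 13.5, 14.1 and 15.9 FPKM in 5aza libraries, against 19.98, 15.5 and 14.5 FPKM in control libraries, with control replicate 1 above all others. The log2 fold change was -0.19 (95% interval -0.47 to 0.09, adjusted p = 0.303 with limma). The PSMB8 estimate of 1.02 lies above the intervals of both PSMB9 and PSMB10, and the difference between the genes was not tested. The 95% interval of PSMB8 itself was wide, 0.33 to 1.72, and began close to the upper end of PSMB9 (0.30).

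PSMB8 and PSMB9 are neighbours in the MHC region, and their annotated spans share 568 bases. The span of PSMB8 also shares 618 bases with the noncoding gene PSMB8-AS1 on the opposite strand, for which no values were at hand. The span of PSMB9 also takes in that of TAP1, which lies on the opposite strand. These spans include introns, and whether the genes share exons was not examined. No source used here says whether the libraries marked strand, and without strand only reads from shared bases cannot be told apart. TAP1 had 26.6, 27.4 and 27.0 FPKM in 5aza libraries, against 20.9, 21.5 and 20.7 FPKM in control libraries, without overlap (log2 fold change 0.36, SE 0.04, adjusted p = 6.87e-04 with limma). PSMB9, whose start lies close by on the other strand, did not pass, and the difference between PSMB9 and TAP1 was not tested.

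The constitutive counterparts were far more abundant, and none of the 3 passed the test. PSMB5 (ENSG00000100804, chromosome 14, 23016543 to 23035230, minus strand), the beta5 subunit that bortezomib inhibits, had 189, 174 and 179 FPKM in 5aza libraries, against 197, 193 and 182 FPKM in control libraries. The ranges overlapped through 5aza replicate 1 (log2 fold change -0.08, 95% interval -0.18 to 0.02, adjusted p = 0.217 with limma). PSMB6 (ENSG00000142507, chromosome 17, 4796144 to 4798503, plus strand), the beta1 subunit, had 239, 239 and 227 FPKM in 5aza libraries, against 259, 265 and 239 FPKM in control libraries. All 5aza values were the lower ones, with 5aza replicate 2 only just below control replicate 3. The log2 fold change of -0.12 (95% interval -0.22 to -0.01) did not pass (adjusted p = 0.0976 with limma), but did without control replicate 3 (adjusted p = 0.0209). PSMB7 (ENSG00000136930, chromosome 9, 124353466 to 124415444, minus strand), the beta2 subunit, had 237, 243 and 225 FPKM in 5aza libraries, against 243.5, 251.4 and 229.7 FPKM in control libraries (log2 fold change -0.04, 95% interval -0.14 to 0.06, adjusted p = 0.554 with limma). The signs of PSMB5 and PSMB7 turned under quantile normalization and cyclic loess, and of all tested genes averaging 50 FPKM or more 6.88% rose and 35.0% fell.

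Within a library, the share of a catalytic pair that is the inducible gene does not depend on a common scaling. PSMB8 made up 0.594%, 0.372% and 0.599% of PSMB8 plus PSMB5 in 5aza libraries, against 0.230%, 0.134% and 0.301% in control libraries. PSMB9 made up 4.30%, 4.30% and 5.46% of PSMB9 plus PSMB6 in 5aza libraries, against 4.28%, 3.74% and 4.18% in control libraries. All 5aza shares were the higher ones in both pairs, though for PSMB9 the closest values were 4.300% in 5aza replicate 2 and 4.282% in control replicate 1. This separation was lost in both pairs under quantile normalization, which is not a common scaling (two-sided exact permutation p = 0.20 for PSMB8 and 0.70 for PSMB9). For PSMB10 of PSMB10 plus PSMB7, the shares were 5.39%, 5.49% and 6.61% in 5aza libraries, against 7.58%, 5.80% and 5.92% in control libraries, with overlap.

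The differences of the mean shares were 0.30 percentage points for PSMB8, 0.619 for PSMB9 and -0.607 for PSMB10. Two-sided exact permutation tests over libraries gave p = 0.10, 0.10 and 0.50, and 0.15, 0.15 and 0.50 adjusted over the 3 pairs; with 3 libraries against 3, the smallest p possible is 0.10. The PSMB9 difference was 0.234 without 5aza replicate 3 and 0.238 under quantile normalization, and 0.812 at most without another library. The PSMB10 difference was -0.0334 without control replicate 1, -0.999 without 5aza replicate 3 and -1.05 under quantile normalization. Summed over the 3 pairs, inducible genes were 3.99% ± 0.491 of the mRNA level of the catalytic subunits in 5aza cells and 3.89% ± 0.434 in control cells (SD, n = 3 each; exact permutation p = 0.70). Constitutive mRNA outweighed inducible mRNA in every library, and the PSMB5 level was 200 ± 58.2 times that of PSMB8 in 5aza cells and 504 ± 217 times in control cells.

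**Figure D3:**
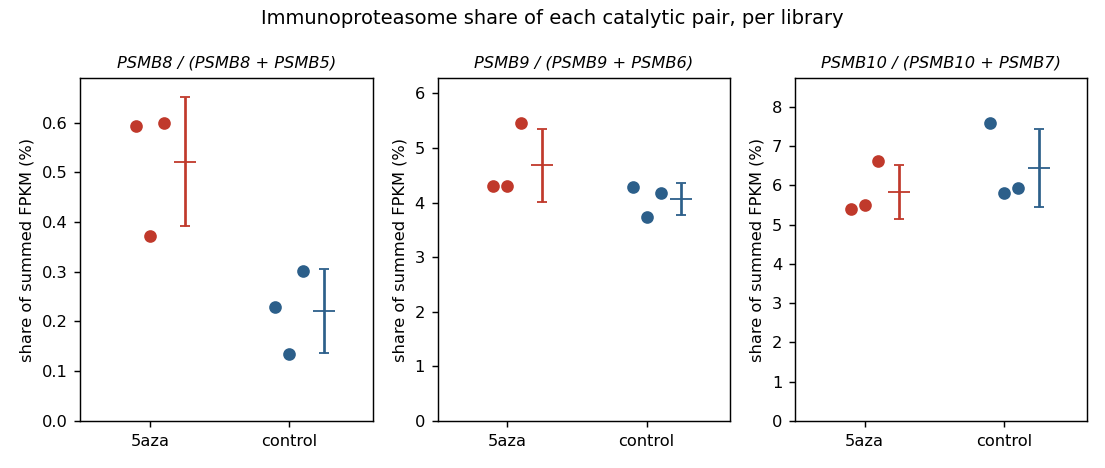
Share of the inducible gene in the summed FPKM of its catalytic pair (y axis, percent, each panel with its own scale from 0), in 3 5aza and 3 control libraries; bars are mean ± SD. The PSMB8 share averages 0.522% in 5aza cells and 0.222% in control cells, while the PSMB10 shares overlap.

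The PA28 genes were intermediate in level. PSME1 (ENSG00000092010, chromosome 14, 24136158 to 24138967, plus strand), the alpha chain, had 137, 131 and 130 FPKM in 5aza libraries, against 139, 136 and 131 FPKM in control libraries, with overlap (log2 fold change -0.03, 95% interval -0.11 to 0.05, adjusted p = 0.562 with limma). PSME2 (ENSG00000100911, chromosome 14, 24143362 to 24147570, minus strand), the beta chain, had 82.2, 82.9 and 78.9 FPKM in 5aza libraries, against 79.6, 77.5 and 72.4 FPKM in control libraries. Its ranges overlapped through 5aza replicate 3 and control replicate 1 (log2 fold change 0.09, 95% interval -0.01 to 0.19, adjusted p = 0.167 with limma). PSME2 passed under quantile normalization (log2 fold change 0.16, adjusted p = 0.0121) and with cyclic loess (0.17, adjusted p = 0.0110), and the sign of PSME1 turned to 0.04 and 0.06 under these scalings.

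The ratio of PSME1 to PSME2, which the scaling of a library does not touch, set the groups apart. It was 1.66, 1.58 and 1.65 in 5aza libraries, against 1.75, 1.76 and 1.81 in control libraries, so that every 5aza ratio was below every control ratio. The means were 1.63 ± 0.0411 in 5aza cells and 1.77 ± 0.0340 in control cells (SD, n = 3 each; two-sided exact permutation p = 0.10, the smallest possible). The values were known when this ratio was picked. The span of PSME2 shares 888 bases with RNF31, on the opposite strand, whose level was 26.1, 24.3 and 26.1 FPKM in 5aza libraries and 26.0, 24.8 and 25.2 FPKM in control libraries. The span of PSME1 shares 9 bases with EMC9.

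ERAP1 (ENSG00000164307, chromosome 5, 96760810 to 96808100, minus strand), which trims long peptides and stops at lengths that fit MHC class I, did not pass the test. It had 3.98, 4.96 and 3.76 FPKM in 5aza libraries, against 4.07, 4.10 and 3.82 FPKM in control libraries. Only 5aza replicate 2 lay above the controls, and the log2 fold change was 0.07 (95% interval -0.19 to 0.33, adjusted p = 0.685 with limma). ERAP1 mRNA exceeded ERAP2 mRNA by 4.58 ± 1.02 times in 5aza cells and 8.03 ± 2.07 times in control cells (SD, n = 3 each; two-sided exact permutation p = 0.10, a ratio chosen after its values were seen). The third aminopeptidase of this chromosome 5 cluster, LNPEP, which trims peptides in endosomes, had 4.43, 5.09 and 4.94 FPKM in 5aza libraries, against 4.33, 3.54 and 4.16 FPKM in control libraries (log2 fold change 0.26, adjusted p = 0.0996 with limma). ERAP1 overlaps CAST on the opposite strand over 18786 bases, and CAST, at 48.5 to 51.7 FPKM in 5aza libraries and 47.6 to 53.3 FPKM in control libraries, is far the more abundant.

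**Figure D4:**
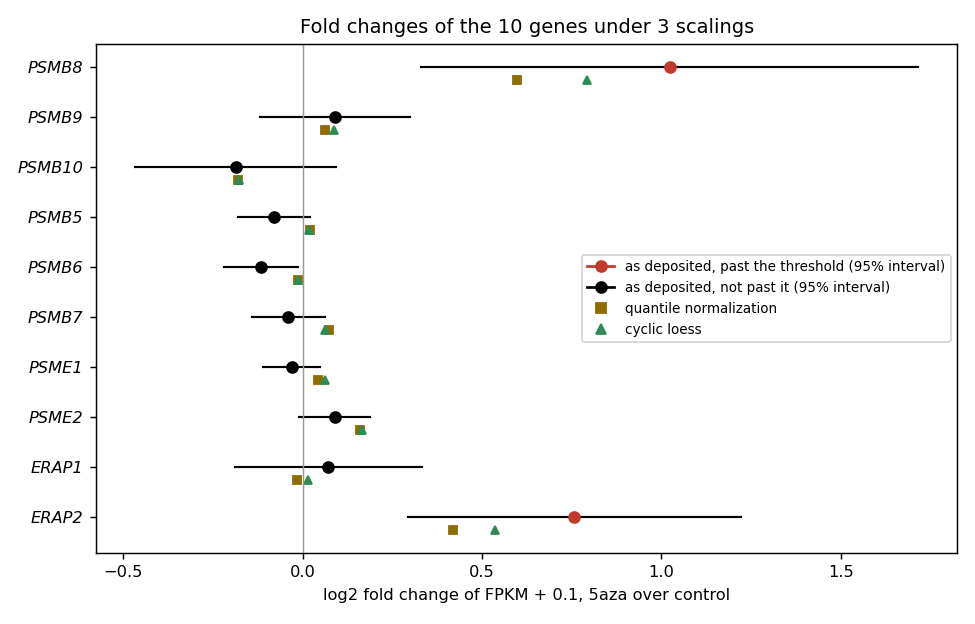
Log2 fold change of FPKM + 0.1, 5aza over control, for the 10 genes (y axis), with 95% intervals for values as deposited (circles, red where past the threshold) and the estimates under quantile normalization (squares) and cyclic loess (triangles). As deposited, PSMB8 and ERAP2 have the largest estimates, 1.02 and 0.76, and the other 8 lie between -0.19 and 0.09. Under quantile normalization PSMB8 and ERAP2 are at 0.60 and 0.42. Their 95% intervals reach down to 0.33 and 0.29, and that of ERAP1 reaches up to 0.33.

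The rest of the proteasome is read here from its subunit and helper genes. Of the 11 other core subunit genes, 5 fell, 0 rose and 6 did not pass, with a median log2 fold change of -0.11. All 11 averaged over 50 FPKM, a range in which 35.0% of tested genes fell with a median of -0.09. PSMA2, an alpha-ring subunit, had 161 ± 5.96 FPKM in 5aza cells and 183 ± 12.2 FPKM in control cells (SD, n = 3 each; log2 fold change -0.18, adjusted p = 0.0413 with limma), PSMA7 -0.17 (adjusted p = 0.0379) and PSMA4 -0.16 (adjusted p = 0.0263). All 5 falls were lost under quantile normalization and cyclic loess, with adjusted p between 0.151 and 0.594 over both, and each was lost without at least 4 of the 6 libraries in turn. Over all genes tested, 13.1% fell and 10.6% rose, and at 50 FPKM or more 35.0% fell and 6.88% rose. Of 18 tested genes of the regulatory particle that caps the barrel in place of PA28, 1 fell, 0 rose and 17 did not pass. That fall was of the ATPase gene PSMC1 (68.4 ± 2.06 FPKM in 5aza cells and 78.8 ± 2.45 FPKM in control cells, SD, n = 3 each; log2 fold change -0.20, adjusted p = 0.00780 with limma), and the list's median of -0.06 turned to 0.01 and 0.02 under quantile normalization and cyclic loess.

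Among 12 tested genes of other activators, the inhibitor and assembly factors, 1 rose, 1 fell and 10 did not pass. The shares over all genes tested, 10.6% risen and 13.1% fallen, stand beside each list of this paragraph. PSME4, the activator PA200, rose to 25.1 ± 1.11 FPKM in 5aza cells, against 20.8 ± 0.462 FPKM in control cells (SD, n = 3 each; log2 fold change 0.27, adjusted p = 0.00561 with limma). PSMG1, a chaperone of alpha-ring assembly, fell to 39.3 ± 0.669 FPKM in 5aza cells, against 47.6 ± 1.52 FPKM in control cells (SD, n = 3 each; log2 fold change -0.27, adjusted p = 0.00210 with limma). POMP, the maturation factor that immunoproteasome assembly needs, had 155, 141 and 150 FPKM in 5aza libraries, against 152, 142 and 146 FPKM in control libraries (adjusted p = 0.741 with limma). Of 19 tested cytosolic and other peptidases, 0 rose, 2 fell (DPP9 and CNDP2) and 17 did not pass, with a median log2 fold change of -0.02 that turned to 0.01 under quantile normalization and 0.0045 with cyclic loess. The DPP9 call was lost without 4 of the 6 libraries in turn (adjusted p up to 0.0705) and the CNDP2 call likewise (up to 0.0802) and under both scalings. LAP3, an interferon-inducible aminopeptidase, had 46.0, 42.7 and 43.7 FPKM in 5aza libraries, against 45.2, 46.0 and 43.1 FPKM in control libraries. In the list around NFE2L1, the factor that restores proteasome genes when proteolysis is blocked, 1 of 5 rose: the protease gene DDI2, at a log2 fold change of 0.23, which no longer passed whichever library was left out (adjusted p 0.0599 to 0.115).

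**Figure D5:**
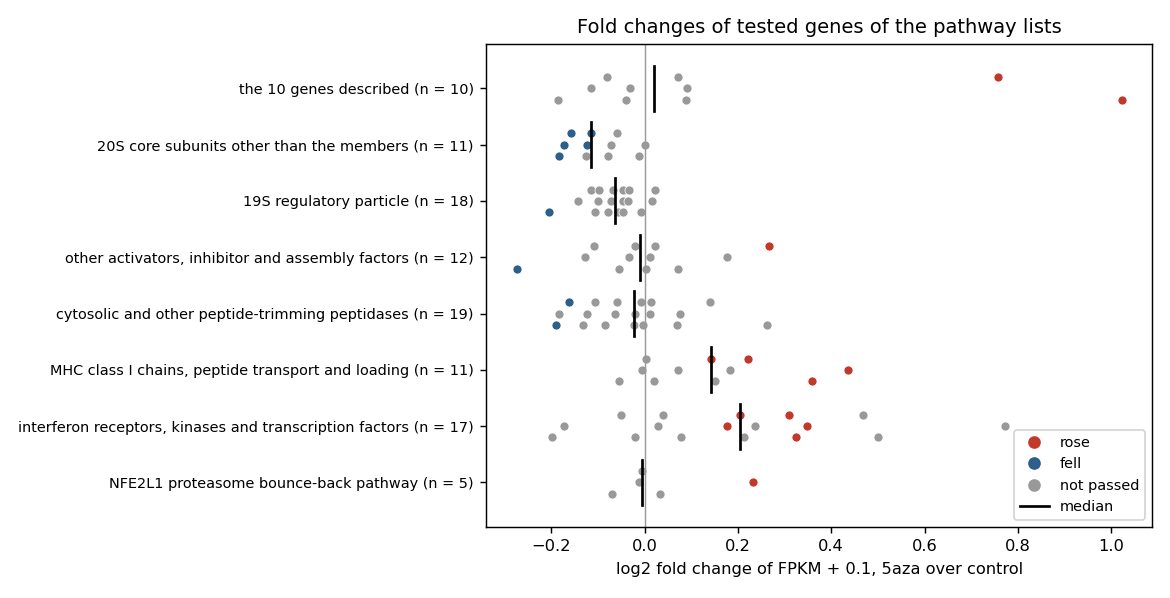
Log2 fold change of FPKM + 0.1, 5aza over control (x axis), of each tested gene in the 10 described and in 7 pathway lists; red rose, blue fell, grey did not pass, black bars are medians. The medians of the MHC class I and interferon lists are 0.14 and 0.20, and that of the other core subunits is -0.11.

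The next steps of the pathway carry the peptides into the endoplasmic reticulum and load them. Of 11 tested genes of MHC class I chains, peptide transport and loading, 4 rose, 0 fell and 7 did not pass. Over all genes tested, 10.6% rose and 13.1% fell, and at 50 FPKM or more 6.88% rose and 35.0% fell. Beside TAP1, the light chain gene B2M rose to 431 ± 7.38 FPKM in 5aza cells, against 370 ± 3.78 FPKM in control cells (SD, n = 3 each; adjusted p = 0.00158 with limma). HLA-E rose by less (log2 fold change 0.14, adjusted p = 0.0297 with limma) and lost its call without 5 of the 6 libraries in turn (up to 0.0855). Under quantile normalization and cyclic loess 7 genes of this list rose. The partner gene TAP2 had 27.7, 27.9 and 25.01 FPKM in 5aza libraries, against 26.8, 28.0 and 24.6 FPKM in control libraries (adjusted p = 0.838 with limma).

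Of 17 tested genes of interferon receptors, kinases and transcription factors, 5 rose, 0 fell and 12 did not pass, with a median log2 fold change of 0.20. Over all genes tested, 10.6% rose and 13.1% fell, with a median of -0.01. IRF1, the factor that interferon gamma uses to induce immunoproteasome genes, had 13.5, 13.9 and 15.2 FPKM in 5aza libraries, against 11.6, 11.3 and 11.0 FPKM in control libraries (log2 fold change 0.32, SE 0.06, adjusted p = 0.00761 with limma). Every 5aza library was above every control library. STAT3 also rose (log2 fold change 0.31, adjusted p = 0.00396), as did SOCS3, a feedback inhibitor whose call was lost without 4 of the 6 libraries in turn (adjusted p up to 0.10), and IFNGR1, a receptor chain whose call was lost without 5 of the 6 (up to 0.145).

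NLRC5, the transactivator of MHC class I genes, was uneven among the treated libraries. It had 1.45, 8.92 and 1.36 FPKM in 5aza libraries, against 1.35, 1.43 and 1.76 FPKM in control libraries, so that 5aza replicate 2 alone was high (log2 fold change 0.77, adjusted p = 0.419 with limma). Of 8 interferon gamma-induced GTPase and chemokine genes in the table, 0 passed the filter on low values. GBP1, a classical interferon gamma target, was at 0 to 0.0251 FPKM in 5aza libraries and 0 to 0.0158 FPKM in control libraries, and CXCL9 was listed at 0 in all 6 libraries. Other genes of the list were higher in 5aza cells. Summed over the list, levels were 0.581 to 1.28 FPKM in 5aza libraries and 0.212 to 0.308 FPKM in control libraries. With no filter on low values 7 were tested, of which 2 rose and 0 fell. Over all 16627 genes tested in that setting, 1780 rose and 1461 fell.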

How the data were processed

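RNA-seq of 6 HCT116 libraries, 3 5aza and 3 control, was used as 1 deposited table of FPKM values that the authors made; the file's name gives the unit. Per the submitters' processing notes, the builds were Rnor_6.0 and GRCh38, and the tools included DESeq2 1.10.1, STAR 2.5.1b as well as HTSeq 0.6.0. Which program made the FPKM values is not stated. Of 16726 entries, 11 identifiers occurred more than once, and for these the entry of higher mean was used. Whole reads were not recovered: at the best of many settings tried, 31.2% to 37.7% of low values of single-transcript genes lay within 0.1 of a whole number, so the depth is unknown and no count test was run. Summed FPKM was 577735 to 592051 in 5aza libraries and 601916 to 628399 in control libraries.

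The 12360 genes that reached 0.5 FPKM in 3 or more of the 6 libraries were tested on log2(FPKM + 0.1) with limma 3.58.1 in R 4.3.3 (lmFit and eBayes with a variance trend, two-sided, Benjamini-Hochberg over all genes tested), a procedure tested on simulated data. Shares and ratios were compared with exact permutation tests (scipy 1.17.1). Coordinates are from GENCODE release 29 on GRCh38, and promoter windows from RefSeq on GRCh38.p14. Alternatives were 2 other pseudocounts, 2 other filters, 3 scalings, no variance trend, a replicate block, summed duplicate rows and leaving out each library. The members and pathway lists were chosen with earlier results of these data known. Named genes are all members, up to 3 risen and 3 fallen genes of each list with the largest changes, genes of the interferon list and genes overlapping a member; LNPEP, POMP, LAP3, TAP2, GBP1, CXCL9 and the cell type markers were named after their values were seen. PSMD11, PSMD10, DPP3, HLA-B and IDO1 were not analysed here. Some results of single genes are not reported here.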

Additional observations from a re-analysis of the deposited data

How the results depend on the processing

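The 10 genes gave few calls, and those few depended on the settings. PSMB8 and ERAP2 both lost their call under quantile normalization and with cyclic loess, where the count of rises was 1, a different gene (PSME2). The count was also 1 (ERAP2) with no variance trend and with no filter on low values, and 0 where a mean of at least 1 FPKM was required, which left PSMB8 and ERAP2 out of the test; without each library in turn rises numbered 0 to 2. Falls among the 10 numbered 0 to 1 without each library and 1 with the replicate block, which called PSMB6 (adjusted p = 0.0282). Signs turned for genes that did not pass: PSMB5 to 0.021 under quantile normalization and 0.018 with cyclic loess, PSMB7 to 0.075 and 0.062, PSME1 to 0.042 and 0.061, and ERAP1 to -0.017 under quantile normalization. Without each library in turn ERAP1 lay between -0.045 (without 5aza replicate 2) and 0.15, and PSMB9 between -0.0041 (without 5aza replicate 3) and 0.14. The difference of the PSMB8 share was 0.170 percentage points under quantile normalization and 0.256 to 0.375 without each library.

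Over all genes, calls numbered 2929, and 1877 to 2599 without each library; falls numbered 1619, 940 to 1521 without each library and 1041 with no variance trend. In the pathway lists 11 genes rose and 9 fell. Rises numbered 19 with cyclic loess, 7 with no variance trend and 7 to 10 without each library. Falls numbered 3 under quantile normalization, 3 with cyclic loess, 2 with no variance trend, 16 with the replicate block and 2 to 15 without each library. Of these 20 genes, 9 kept their call under all 16 alternatives. Same-numbered libraries of the groups deviated together only weakly (correlations of 0.048, 0.077 and 0.068 across genes), so the numbers were not taken as pairs, although each library correlated best with its own number.

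The cause of these shifts was not tested. Read depth is unknown, so counting error at the levels of PSMB8 and ERAP2 could not be given.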

Other observations

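Both tissue-restricted core subunit genes were listed at 0 in all 3 control libraries and had low values in every 5aza library. This pattern was not particular to them, and CD3D above had it too. Over the whole table, genes listed at 0 numbered 755 to 801 in 5aza libraries and 1663 to 1761 in control libraries. PSMB11, which encodes beta5t of the thymic cortex, was at 0.0186, 0.0553 and 0.0190 FPKM in 5aza libraries. PSMA8, which encodes an alpha subunit of male germ cells, was at 0.0890, 0.275 and 0.0859 FPKM in 5aza libraries. Neither passed the filter on low values, so neither was tested, and PSMA8 at its highest was below the lowest PSMB8 value of the 5aza libraries.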
